A study of Mus musculus with 6 samples.

Results

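Nkd2 and 9 other negative regulators of Wnt signalling were followed on 6 mouse expression arrays: Nkd1, Nkd2, Axin2, Notum, Rnf43, Znrf3, Sfrp1, Wif1, Dkk3 and Apcdd1. Members were taken as the probe sets whose platform annotation names 1 gene alone, that gene being among the 10. All 10 genes were found, with 12 probe sets, among 22180 genes in all. Axin2 and Notum have 2 probe sets each, and the brighter one stands for the gene unless the other is named. The genes were chosen with the comparison between tumors and wild-type cells already known, so their differences are given as descriptions, with no test.

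The Brca1Tumor group held 3 mammary tumors, numbers 23, 24 and 25, of Trp53L/L;Brca1L/L females, which the labels describe as null for both genes. The K8wt group held 3 samples of wild-type luminal mammary epithelial cells, numbers 1, 2 and 4, sorted for yellow fluorescent protein from Rosa26-Stop-YFP females. Both groups had received the Ad-K8-Cre adenovirus, in which a keratin 8 promoter drives Cre recombinase, by injection into the ducts. The tumors were collected several months later and the wild-type cells after 10 to 14 days. The labels describe a sort only for the wild-type cells, so bulk tumor tissue is set against sorted cells. In such tissue a change in the number of cells of a type and a change in RNA per cell cannot be told apart. The labels give neither the age of the mice nor whether the 3 tumors came from 3 mice. If they did not, p-values reflect some spread within an animal.

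Wnt ligands bind Frizzled receptors and LRP co-receptors, which act through Dishevelled to stop the destruction of beta-catenin. Beta-catenin then works with TCF/LEF factors at target genes, and several of these targets encode inhibitors of the same pathway, which makes a feedback loop. Naked cuticle proteins (Nkd1, Nkd2) bind Dishevelled, Axin2 is a scaffold of the destruction complex, Rnf43 and Znrf3 are membrane ubiquitin ligases that remove Frizzled, and Notum strips the lipid from Wnt ligands. Sfrp1 and Wif1 bind Wnt ligands outside the cell, Apcdd1 is a membrane inhibitor, and Dkk3 is a divergent relative of the Dickkopf inhibitors. In the mammary gland, Wnt signalling is known for its part in the maintenance of stem and basal cells.

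The 250 bases upstream of an annotated transcription start were read from RefSeq (GRCm38.p6). Windows are printed for the pair of naked cuticle genes, whose differences were unlike in these data, and for Wif1. Wif1 was also higher in every tumor, and its window held the letters searched for. Axin2, higher in every tumor too, has a window without them, which is not printed. Capitals mark CTTTG, the core of the motif that TCF/LEF factors bind, searched on both strands. Sequences run 5′ to 3′ along the gene's strand.
Nkd2 (chr13:73847632-73847881, minus strand): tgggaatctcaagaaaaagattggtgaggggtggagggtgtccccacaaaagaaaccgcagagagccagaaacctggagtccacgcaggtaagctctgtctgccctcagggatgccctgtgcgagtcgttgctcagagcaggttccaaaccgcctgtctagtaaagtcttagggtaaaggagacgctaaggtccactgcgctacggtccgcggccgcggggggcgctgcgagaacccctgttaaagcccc
Nkd1 (chr8:88527383-88527632, plus strand): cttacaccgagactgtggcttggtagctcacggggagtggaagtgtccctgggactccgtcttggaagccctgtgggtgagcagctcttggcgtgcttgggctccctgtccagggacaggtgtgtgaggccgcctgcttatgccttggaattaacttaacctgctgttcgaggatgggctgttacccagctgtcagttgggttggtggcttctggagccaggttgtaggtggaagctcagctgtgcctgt
Wif1 (chr10:121033754-121034003, plus strand): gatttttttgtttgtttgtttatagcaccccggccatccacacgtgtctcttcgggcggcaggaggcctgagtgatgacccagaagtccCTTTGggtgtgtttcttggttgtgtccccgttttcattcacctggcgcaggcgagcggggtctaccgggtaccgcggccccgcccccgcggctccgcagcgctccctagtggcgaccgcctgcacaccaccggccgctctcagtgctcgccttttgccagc
The reference held windows for 5 of the 10 members, 6 windows in all, since Rnf43 has 2. The core CTTTG was found in 1 of the 6, that of Wif1, and lay 161 to 157 bases before the start, while 48.6% of all 32851 windows of the same length hold it. The longer forms CTTTGAT and CTTTGAA, which contain this core, were in none of the 6, against 3.21% and 4.46% of all windows. A match is a description of letters, and a missing one says only that these letters are not in this window. The Nkd2 window held 14 CG dinucleotides and the Nkd1 window 6, and the median of all windows was 6.

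The values are RMA values on a log2 scale. They can be compared between arrays for 1 probe set, but not between probe sets. As a mark for background, each array's 95th percentile over 1105 olfactory receptor genes was used, as in earlier work on these data. It lay between 3.24 and 3.45 on the tumor arrays and between 3.70 and 3.86 on the wild-type arrays. The median difference, tumor minus wild type, was -0.12 over all genes, -0.21 over genes with a mean under 5, -0.25 over olfactory receptor genes and 0.32 over genes whose mean was 5 or more. The luminal keratin gene Krt8 lay between 7.76 and 9.41 in tumors and between 10.31 and 11.12 in wild-type cells. Of 12 luminal markers, 8 lay lower in every tumor than on any wild-type array, and 2, Kit and Elf5, lay higher. Some lay under the mark: Elf5 on all 3 wild-type arrays, Krt19 in tumor 25 and Foxa1 in tumor 23. In limma (Benjamini-Hochberg adjustment over 22180 genes, threshold 0.05), 867 genes passed, 3.91% of those tested, and 64.5% of these were higher in tumors. Of those, 2.52% of all genes were higher in tumors and 1.39% lower. The share of calls upward was 44.3% when the arrays were quantile normalized once more and 52.3% under cyclic loess. With the arrays centred on 13 housekeeping genes it was 24.6%, and the median difference over all genes became -0.61.

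Nkd2 was far higher in every tumor, while its naked cuticle relative Nkd1 overlapped between the groups. Nkd2 measured 9.54, 9.26 and 9.68 in tumors 23, 24 and 25, and 4.11, 3.78 and 3.37 in wild-type cells 1, 2 and 4. All 3 tumors were high and close together, and the lowest tumor lay 5.15 log2 units above the highest wild-type array. The means were 9.49 ± 0.21 in tumors and 3.75 ± 0.37 in wild-type cells (n = 3 each, SD), a difference of 5.74 ± 0.24 (SE), or 53.4-fold in RMA values. Wild-type cells 2 and 4 lay under the background mark. With those values raised to the mark, the difference was 5.60, or 48.6-fold, so the size of the fold depends on where background is set. No other of the 22180 genes had a larger positive difference, and 3 had a larger negative one.

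Nkd1 measured 4.53, 3.11 and 3.65 in tumors 23, 24 and 25, and 3.49, 4.20 and 3.73 in wild-type cells 1, 2 and 4. The groups overlapped, and 1 array of each lay under the background mark. The difference was -0.05 ± 0.39 (SE) between means of 3.76 ± 0.72 in tumors and 3.81 ± 0.36 in wild-type cells (n = 3 each, SD). Its sign turned after cyclic loess and in 3 of the 6 sets that leave out 1 array.

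**Figure D1:**
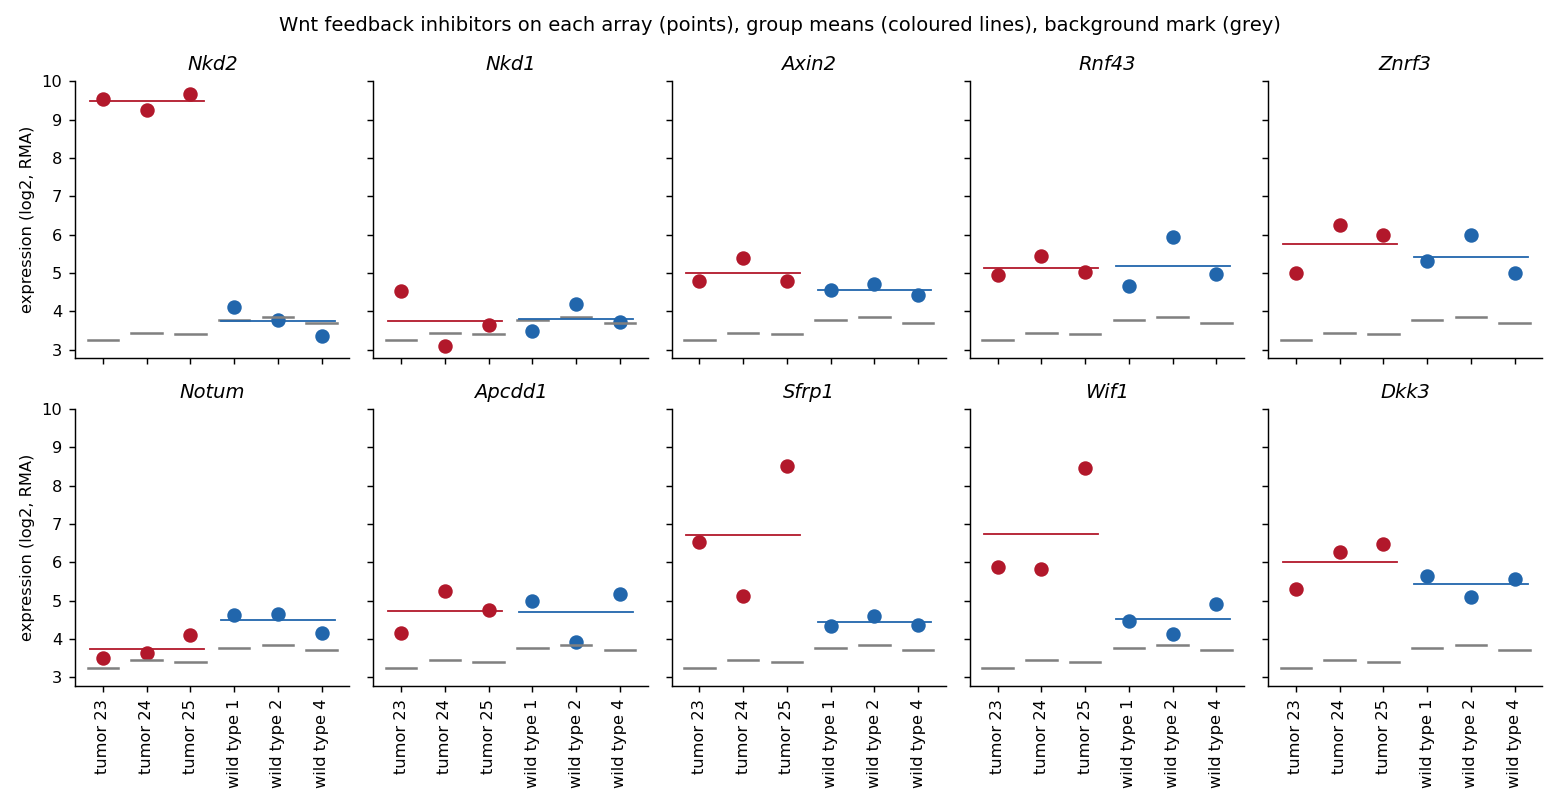
Expression (log2, RMA) of the 10 feedback inhibitors on each array, with the 3 tumors (red) left of the 3 wild-type samples (blue). Points are arrays, coloured lines are group means, and grey bars are the array's background mark. Nkd2 lies between 9.26 and 9.68 in the tumors and at or near the mark in wild-type cells, whereas Sfrp1 and Wif1 are spread out among the tumors.

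The mean was higher in tumors for 7 of the 10 members, as it was for 41.7% of all genes. Of the 10, 4 lay higher in every tumor than on any wild-type array (Nkd2, Sfrp1, Wif1 and Axin2), 1 lay lower (Notum) and 5 overlapped. Over all genes, 36.4% did not overlap, 14.0% upward and 22.4% downward. Since the members were chosen on this contrast, nothing is read from their count. The median difference of the 10 members was 0.37, against -0.12 over all genes. The absolute difference reached 2-fold for 3 members, Nkd2, Sfrp1 and Wif1, as it did for 14.5% of all genes.

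The secreted Wnt-binding inhibitors Sfrp1 and Wif1 were higher in the tumors on average, but by very unequal amounts. Sfrp1 measured 6.53, 5.12 and 8.50 in tumors 23, 24 and 25, and 4.34, 4.59 and 4.37 in wild-type cells 1, 2 and 4. Tumor 25 stood highest, and tumor 24 lay only 0.53 above the highest wild-type array. The means were 6.72 ± 1.70 in tumors and 4.44 ± 0.14 in wild-type cells (n = 3 each, SD), a difference of 2.28 ± 0.78 (SE). Without tumor 25 the difference was 1.39. Only 0.757% of all genes had a larger SD between tumors than Sfrp1.

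Wif1 measured 5.87, 5.84 and 8.47 in tumors 23, 24 and 25, and 4.48, 4.14 and 4.93 in wild-type cells 1, 2 and 4. Tumor 25 again stood apart from the other tumors, which lay close together and above all wild-type arrays. The means were 6.73 ± 1.51 in tumors and 4.51 ± 0.40 in wild-type cells (n = 3 each, SD). The difference was 2.21 ± 0.72 (SE), and 1.34 without tumor 25. In tumor 25 alone Wif1 lay 3.95 and Sfrp1 4.06 above the wild-type mean. Nkd2 differed from both in this respect, with tumors between 5.51 and 5.92 above the wild-type mean.

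Dkk3 measured 5.30, 6.28 and 6.48 in tumors 23, 24 and 25, and 5.65, 5.10 and 5.57 in wild-type cells 1, 2 and 4. Tumors 24 and 25 lay above every wild-type array and tumor 23 below 2 of them. The difference was 0.58 ± 0.35 (SE), and it shrank to 0.09 after housekeeping centring.

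**Figure D2:**
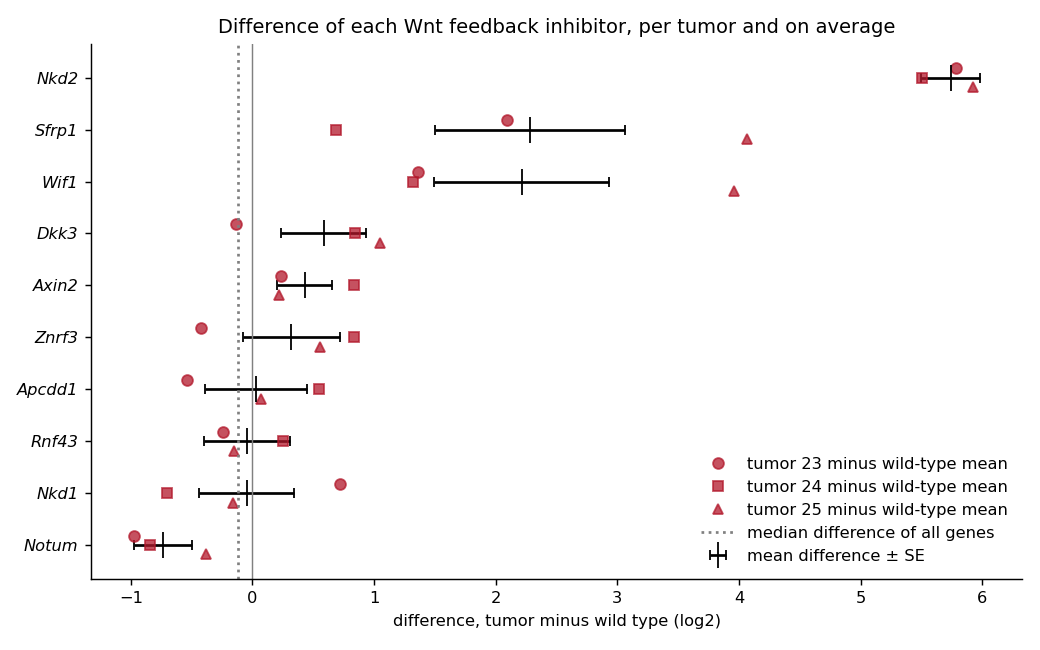
Difference in log2 units, tumor minus wild type, for the 10 feedback inhibitors. Black bars are the mean difference with its SE, red symbols are single tumors minus the wild-type mean, and the dotted line is the median difference of all genes (-0.12). The tumors agree closely for Nkd2, while tumor 25 (triangles) lies far to the right for Sfrp1 and Wif1.

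Axin2, which is widely used as a readout of beta-catenin activity, differed little. It measured 4.79, 5.40 and 4.78 in tumors 23, 24 and 25, and 4.55, 4.71 and 4.43 in wild-type cells 1, 2 and 4. The groups did not overlap, but by a gap of only 0.07. The difference was 0.43 ± 0.23 (SE) between means of 4.99 ± 0.35 in tumors and 4.56 ± 0.14 in wild-type cells (n = 3 each, SD). Cyclic loess gave 0.24 and a further quantile normalization 0.16, and the difference stayed positive, between 0.23 and 0.53, in all 6 sets that leave out 1 array. Housekeeping centring gave -0.0645, with the median difference over all genes at -0.61 under that scaling. The dimmer Axin2 probe set went the other way, with a difference of -0.17, but lay under the background mark on all 6 arrays.

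Notum, a secreted enzyme that inactivates Wnt ligands, was the member with the lowest values in tumors relative to wild-type cells. It measured 3.51, 3.64 and 4.10 in tumors 23, 24 and 25, and 4.62, 4.67 and 4.17 in wild-type cells 1, 2 and 4. Every tumor lay below every wild-type array, with a gap of 0.06, and all 6 values lay above the background mark. The means were 3.75 ± 0.31 in tumors and 4.49 ± 0.28 in wild-type cells (n = 3 each, SD), a difference of -0.74 ± 0.24 (SE). Dim genes as a group also lay lower on the tumor arrays, with the median of -0.21 given above. The dimmer Notum probe set gave -0.59, but lay under the mark on all 6 arrays. Olfactory receptor genes, used to set that mark, had a median of -0.25. The Notum difference was -0.74 after cyclic loess, -0.86 after quantile normalization again and -1.23 after housekeeping centring.

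The Frizzled-removing ligases overlapped between the groups. Rnf43 measured 4.94, 5.44 and 5.03 in tumors 23, 24 and 25, and 4.66, 5.93 and 4.97 in wild-type cells 1, 2 and 4, a difference of -0.05 ± 0.35 (SE). Znrf3 measured 5.01, 6.26 and 5.98 in the tumors, and 5.32, 5.98 and 4.99 in the wild-type cells in the same orders, a difference of 0.32 ± 0.40 (SE). For both, the spread within a group was larger than the difference between groups.

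The membrane inhibitor Apcdd1 also overlapped. It measured 4.17, 5.25 and 4.77 in tumors 23, 24 and 25, and 4.99, 3.93 and 5.19 in wild-type cells 1, 2 and 4, a difference of 0.03 ± 0.42 (SE). The signs of the Rnf43, Znrf3 and Apcdd1 differences each turned under at least 2 of the 10 alternatives run.

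**Figure D3:**
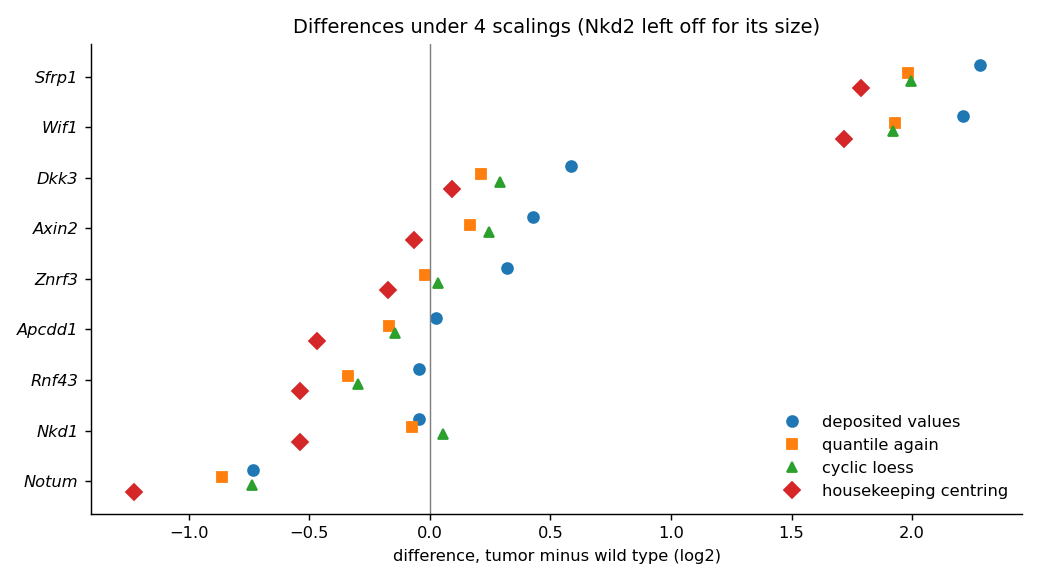
Difference in log2 units, tumor minus wild type, of 9 members as deposited and under 3 other scalings of the arrays. Nkd2, left off for its size, stayed between 5.25 and 5.68 under those scalings. Sfrp1 and Wif1 stay right of 1.7 and Notum left of -0.7, whereas Axin2, Znrf3, Apcdd1 and Nkd1 change sign under at least 1 scaling.

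The other genes of the pathway, in 8 lists by role, were tested in the limma fit over all genes. The lists were written with earlier results of these data known. Of 121 genes listed, 116 were measured, and 3 passed, 1 higher in tumors and 2 lower, which is 2.59% of them, against 3.91% over all genes. At an unadjusted p under 0.05 there were 35, or 30.2%, against 26.4% over all genes. The median difference of the 116 was -0.07, against -0.12.

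Among the 21 genes of Wnt ligands and their secretion none passed in limma. An unadjusted p under 0.05 was found for 8 (38.1%), against 26.4% of all genes. The list median was -0.30, and 9 of the 21 lay under the background mark on every array. Porcn, the acyltransferase that attaches the lipid to Wnt ligands, measured 6.39, 8.48 and 6.45 in tumors 23, 24 and 25, and 5.49, 4.22 and 5.30 in wild-type cells 1, 2 and 4. It lay higher in every tumor, with a limma adjusted p of 0.111 for a difference of 2.10. The ligand gene Wnt5a acts mostly through receptors other than the beta-catenin route. Its difference was -1.29 ± 0.51 (SE) without passing (limma adjusted p = 0.173). It measured 4.07 and 4.05 in tumors 23 and 24, and 2.52, under the background mark, in tumor 25. Wild-type cells 1, 2 and 4 measured 4.76, 4.28 and 5.47.

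None of the 16 receptor genes passed in limma, and 4 (25%) had an unadjusted p under 0.05, against 26.4% of all genes. The list median was 0.37. Fzd7, a Frizzled receptor, measured 6.21, 5.67 and 6.48 in tumors 23, 24 and 25, and 5.09, 4.35 and 5.01 in wild-type cells 1, 2 and 4. The groups did not overlap, and the limma adjusted p was 0.0672 for a difference of 1.30. It passed in 1 of the 6 sets that leave out 1 array, without tumor 24, and in 1 of the 6 other alternatives. Fzd9 had its high value in tumor 25 alone, at 6.72, with 3.84 and 3.50 in tumors 23 and 24 and 3.12 to 3.47 in wild-type cells, all under the mark there.

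Of the 7 genes for R-spondins, secreted proteins that counter Rnf43 and Znrf3, and their LGR receptors, none passed in limma. An unadjusted p under 0.05 was found for 3 (42.9%), against 26.4% of all genes. The difference was 1.03 ± 0.55 (SE) for Lgr4 and -0.96 ± 0.36 for Rspo1, and both genes overlapped between the groups. The list median was -0.16.

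Among 16 antagonists outside the members, 1 passed in limma (6.25%, against 3.91% of all genes). Dkkl1 fell and none rose. For 7 (43.75%) the unadjusted p was under 0.05, against 26.4% of all genes. The list median was -0.48, and 5 of the 16 lay under the background mark on every array. Dkkl1, a gene related in sequence to Dkk3, is best known from germ cells. It measured 2.66, 2.86 and 2.98 in tumors 23, 24 and 25, and 6.01, 7.05 and 7.23 in wild-type cells 1, 2 and 4. All tumor values lay under the background mark and all wild-type values above it. The difference was -3.93 ± 0.34 (SE) with a limma adjusted p of 0.00884, and it passed in all 6 sets that leave out 1 array. Dkkl1 and Dkk3 thus ran apart in these arrays, though that contrast itself was not tested.

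None of 20 cytoplasmic genes passed in limma, and 2 (10%) had an unadjusted p under 0.05, against 26.4% of all genes. The list median was 0.03. The difference was -1.18 ± 0.48 (SE) for Cxxc5, a Dishevelled-binding inhibitor. For Dvl3, one of the Dishevelled genes to whose products naked cuticle proteins bind, it was 0.76 ± 0.39. The beta-catenin gene Ctnnb1, named here after its values were seen, measured 7.47, 7.23 and 7.39 in tumors 23, 24 and 25, and 6.50, 6.40 and 7.02 in wild-type cells 1, 2 and 4. Its groups did not overlap, and its limma adjusted p was 0.111.

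Among 12 TCF/LEF factors and nuclear cofactors, 1 passed in limma (8.33%, against 3.91% of all genes). Bcl9 rose and none fell, with a list median of 0.49. For 4 (33.3%) the unadjusted p was under 0.05, against 26.4% of all genes. Bcl9 links beta-catenin to the Pygopus proteins. It measured 6.003, 6.69 and 6.65 in tumors 23, 24 and 25, and 4.39, 4.41 and 5.22 in wild-type cells 1, 2 and 4. The difference was 1.77 ± 0.31 (SE) with a limma adjusted p of 0.0383. The call was lost whichever of the 6 arrays was left out, after quantile normalization again and after housekeeping centring, with adjusted p up to 0.114.

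Of 16 other genes known as beta-catenin targets, 1 passed in limma (6.25%, against 3.91% of all genes). Plaur fell and none rose. For 4 (25%) the unadjusted p was under 0.05, against 26.4% of all genes. The list median was -0.01, and 3 of the 16 lay under the background mark on every array. Plaur encodes the receptor of urokinase and also answers other signals. It measured 6.05, 6.18 and 6.10 in tumors 23, 24 and 25, and 8.40, 8.69 and 9.32 in wild-type cells 1, 2 and 4. The difference was -2.70 ± 0.26 (SE) with a limma adjusted p of 0.0121, and it passed in all 6 sets that leave out 1 array. Twist1, a factor of mesenchymal cells that was named after its values were seen, measured 7.26, 5.90 and 8.66 in tumors 23, 24 and 25, against 4.12, 4.13 and 4.43 in wild-type cells 1, 2 and 4, with a limma adjusted p of 0.0562. It passed in 1 of the 6 sets that leave out 1 array, without tumor 24, and in 3 of the 6 other alternatives. The intestinal stem cell target Lgr5, counted with the R-spondin receptors, and the target Sp5 lay under the background mark on all 6 arrays; both were named after their values were seen.

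Of 8 planar cell polarity genes, which belong to the branch of Wnt signalling without beta-catenin, none passed in limma. An unadjusted p under 0.05 was found for 3 (37.5%), against 26.4% of all genes. The difference was 1.18 ± 0.31 (SE) for Scrib and 1.15 ± 0.46 for Celsr2. Tgfa, whose protein is known to be carried to the cell surface by NKD2, overlapped between the groups. It measured 5.17, 5.16 and 5.55 in tumors 23, 24 and 25, and 5.46, 4.84 and 5.06 in wild-type cells 1, 2 and 4.

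**Figure D4:**
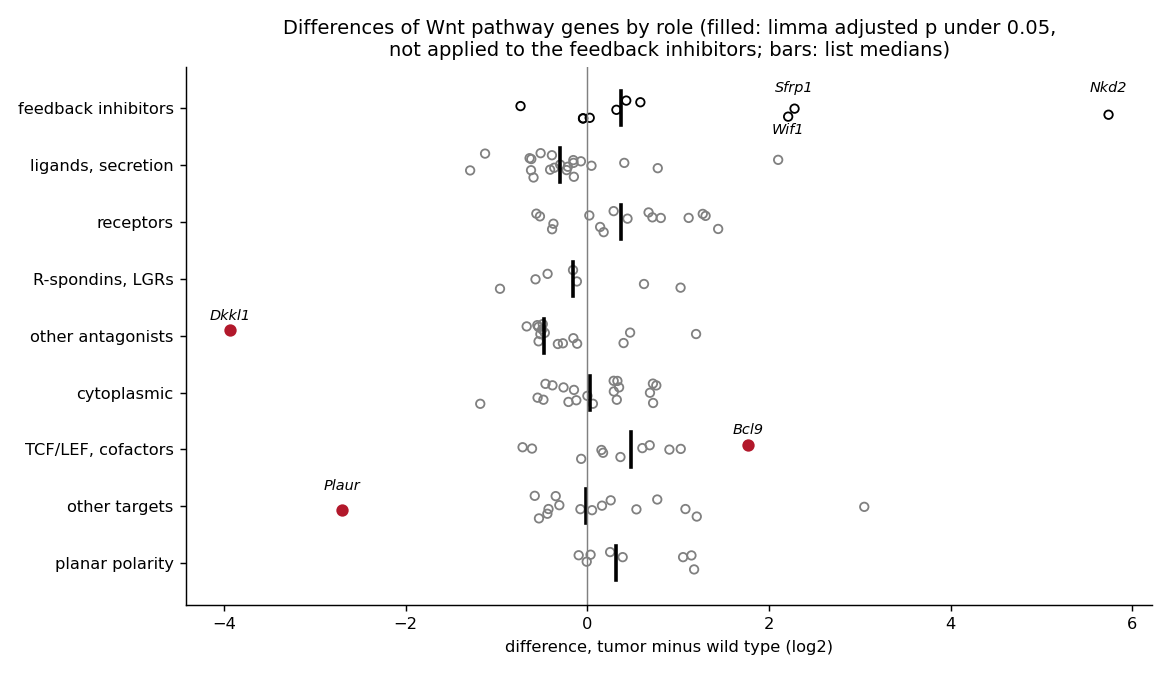
Difference in log2 units, tumor minus wild type, of each measured gene, by role in the Wnt pathway. Each circle is a gene, black bars are list medians, and filled circles passed limma's test, which was not applied to the 10 feedback inhibitors in the top row. Bcl9, Dkkl1 and Plaur are the 3 filled points among 116 genes, and Nkd2 lies at 5.74, farther from 0 than any of them.

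The genes with a pattern most like that of Nkd2 were Zfp960, C1qa, C1qb, Loxl3 and Plod2, by the mean absolute difference over 6 arrays after each gene's own mean was taken off. This distance was 0.66 for Zfp960, a zinc finger gene, 0.83 for C1qa and 0.85 for C1qb, both complement genes of macrophages, 0.86 for the lysyl oxidase relative Loxl3 and 0.87 for the collagen hydroxylase gene Plod2. As these 5 genes were picked for being like Nkd2, their differences lend no support to that of Nkd2. C1qa measured 9.33, 8.91 and 8.13 in tumors 23, 24 and 25, and 5.19, 4.60 and 4.32 in wild-type cells 1, 2 and 4. Among the tumors C1qa was lowest in tumor 25. Nkd2 spanned only 0.42 log2 units between the tumors, so no order among them is read from it.

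Macrophage markers were also higher in the tumors. All 10 were higher in every tumor than in any wild-type sample, against 14.0% of all genes. In limma 6 rose (60%, against 2.52% of all genes), among them C1qa and C1qb. The 10 markers differed by 1.22 (Mrc1) to 4.09 (C1qa), with a list median of 1.77. Their mean lay at 6.79, 6.56 and 6.03 in tumors 23, 24 and 25, and between 3.70 and 4.33 in wild-type cells, where 5 of the 10 lay under the background mark on all 3 arrays. Their part in the Nkd2 difference was not tested.

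Skeletal muscle markers were high in some tumors only. Their mean was 8.70, 3.50 and 5.68 in tumors 23, 24 and 25, and 3.38 to 3.59 in wild-type cells. None of the 12 passed in limma, and 2 (16.7%) had an unadjusted p under 0.05, against 26.4% of all genes. Tumor 24 had 8 of the 12 muscle markers under the background mark. The part of muscle in the differences of the members was not tested.

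Fibroblast markers had a mean of 6.28, 6.76 and 5.40 in tumors 23, 24 and 25, and of 5.32 to 5.90 in wild-type cells, and 1 of 11 rose in limma. Basal markers had a mean of 6.34, 6.59 and 6.02 in the tumors in the same order and of 5.84 to 6.46 in wild-type cells, and 1 of the 10 fell in limma. The means of both lists were lowest among the tumors in tumor 25. Pdgfra of the fibroblast list and Oxtr, Actg2 and Itga6 of the basal list were instead highest there. Endothelial markers were highest among the tumors in tumor 25, at 5.38 against 4.66 and 4.57 in tumors 23 and 24, and lay between 4.64 and 5.31 in wild-type cells, and 1 of 8 fell in limma. Luminal markers had a mean of 6.48 to 7.13 in tumors and of 7.95 to 8.39 in wild-type cells, with 2 of 12 higher and 3 lower in limma. Adipocyte markers had a mean of 3.53 to 3.66 in tumors and of 3.99 to 4.31 in wild-type cells, but 5 of the 8 lay under the background mark on every array. None of the 8 passed in limma and 2 had an unadjusted p under 0.05. Over all genes, 2.52% rose and 1.39% fell in limma, and 26.4% had an unadjusted p under 0.05. The part of these cell types in the differences of the members was not tested.

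**Figure D5:**
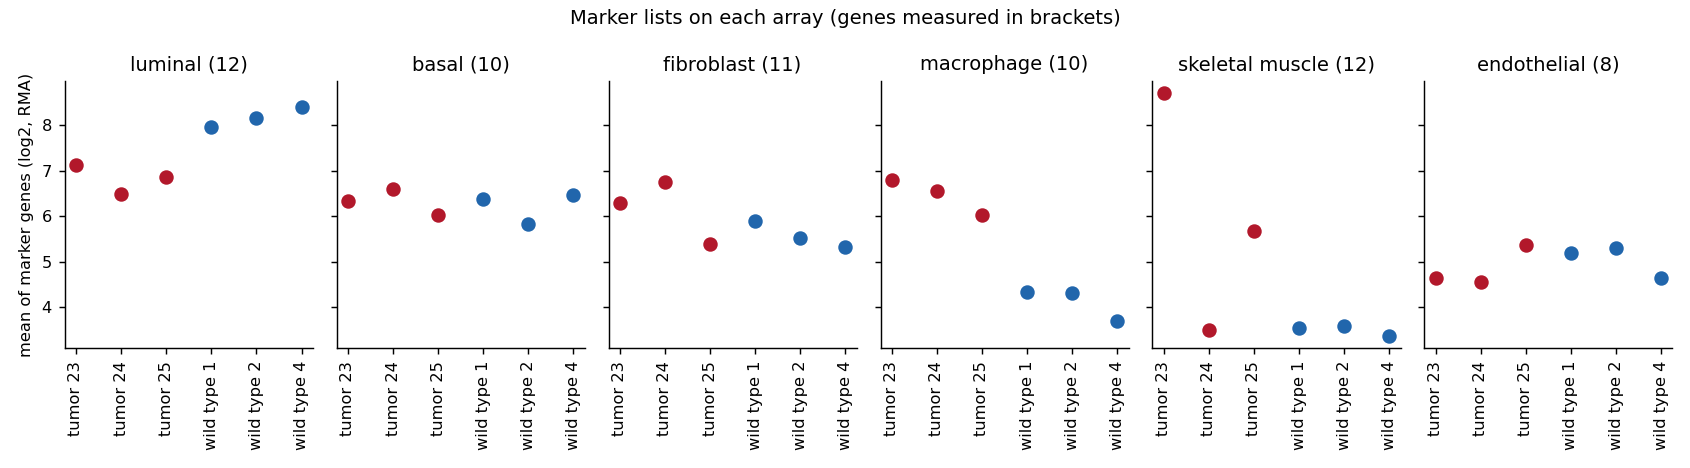
Mean expression (log2, RMA) of 6 marker lists on each array, tumors (red) left of wild-type samples (blue). Macrophage markers lie between 6.03 and 6.79 in the tumors and between 3.70 and 4.33 in wild-type cells, while the muscle list is high in tumor 23 (8.70) and tumor 25 (5.68) but not in tumor 24 (3.50).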

How the data were processed

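Total RNA was measured on 6 arrays after NuGEN amplification with a biotin label, per the labels' protocols. The authors deposited log2 expression values made with RMA and oligo, per the submitters' processing notes, which list no versions. RMA forces arrays towards a common distribution and compresses differences near background. Of 41345 probe sets, 23521 named 1 gene, 1814 several and 16010 none; 23328 were matched by Entrez identifier to RefSeq (GRCm38.p6). The brightest probe set stood for each of 22180 genes. Probe positions, detection calls and scan batches were not used here. Precision is limited by the number of arrays.

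limma 3.58.1 (lmFit, eBayes, R 4.3.3) compared the groups over all genes, two-sided, without covariates or filter, and was tested on simulated data. Named genes outside the members are, per list, up to 4 passing genes with the largest difference, or 2 values where none passed, 5 genes most like Nkd2, and Tgfa. Ctnnb1, Twist1, Lgr5, Sp5, Lrp5, Lrp6, Ror1, Mmp7 and the cell type marker Krt8 were named outside this rule, after their values were seen. Members, lists and the background mark were chosen with earlier results of these data known. Gsk3a, Csnk1d, Tcf7, Fosl1 and Ephb2 were listed but have no value here, as no probe set naming 1 of them alone was found. Alternatives were a filter on dim genes, averaging the probe sets of a gene, 3 scalings, a trended robust prior and leaving out each array. Promoters were searched for fixed letters only.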

Additional observations from a re-analysis of the deposited data

How the results depend on the processing

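The number of genes passing limma over all genes was 867 and ran from 72 to 1200 when 1 array was left out, lowest without wild-type replicate 4 and highest without tumor 24. Each such set has fewer degrees of freedom. It was 142 without tumor 23, 375 without tumor 25, 138 without wild-type replicate 1 and 170 without replicate 2. The 3 calls among Wnt genes outside the members became 2 to 4 in these sets, 6 with genes of a mean of at least 5, where fewer genes were tested, and 5 after housekeeping centring. Over 100 recomputed differences of members, 95 moved by less than the SD between replicates, pooled over both groups. This is a wide yardstick, and Sfrp1 at 1.39 counts among the 95. Averaging probe sets could not move members with 1 probe set. The sign turned in 5 of 10 alternatives for Apcdd1, 4 for Nkd1, 3 for Rnf43, 2 for Znrf3 and 1 for Axin2. The Axin2 difference turned to -0.0645 after housekeeping centring, which shifts every gene downward by the same amount. It was 0.13 with the mean of the gene's probe sets. Nkd2 ranged from 5.55 to 5.92 when 1 array was left out, Sfrp1 from 1.39 to 3.08, Wif1 from 1.34 to 2.66 and Notum from -0.91 to -0.61. No paired analysis was possible because the groups share no replicate numbers. Values near the background mark limit Nkd1, Notum and the wild-type level of Nkd2.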

Other observations

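Tumor 25 had the highest value among the 3 tumors for 5 of the 10 members and for 54 of the 116 other Wnt genes (46.6%), against 36.0% of all genes and 45.3% of genes with a mean of at least 5. Among the Wnt receptors, the co-receptor genes Lrp5 and Lrp6 measured 9.93 and 8.88 in tumor 25, against 8.33 and 7.53 in tumor 23 and 8.10 and 7.94 in tumor 24, and 7.74 to 8.33 and 7.04 to 7.79 in wild-type cells. The receptor kinase gene Ror1 measured 6.62 in tumor 25, with 4.87 and 5.31 in tumors 23 and 24 and 3.93 to 4.66 in wild-type cells. Other genes were high in another tumor alone. The matrix protease gene Mmp7 measured 7.19 in tumor 23, against 3.96 in tumor 24 and 4.09 in tumor 25. These genes were named after their values were seen, and differences between single tumors have no replicate check.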
